A study of Mus musculus with 56 samples.

Results

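Mitochondrial ribosomal protein genes (Mrp genes) were followed through CD8+ T cells that recognise a fetal and graft antigen. A gene was a member if its row was protein-coding and its mouse symbol was Mrpl or Mrps followed by a number. This gave 78 members of 55359 rows in the count table, 49 of the large subunit (Mrpl) and 29 of the small subunit (Mrps) by their symbols. They lie on 17 chromosomes.

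The mitochondrial ribosome is a separate ribosome inside the organelle that makes only the few proteins encoded by mitochondrial DNA, all of them core subunits of the respiratory chain and ATP synthase. Its 2 ribosomal RNAs (mt-Rnr1 and mt-Rnr2) come from mitochondrial DNA, whereas every one of its proteins is encoded in the nucleus, made on cytosolic ribosomes and imported. In T cells, mitochondrial translation is known to be needed for respiration and for expansion after activation. Membership and subunit were read from symbols, which follow historical naming, and whether each product is part of this ribosome was not checked. The products of Mrps30 and Mrps18a are known to sit in the large subunit.

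The cells were CD8+ T cells from spleen and lymph nodes of C57BL/6 females, bought at 8 to 12 weeks of age, that bound OVA:Kb tetramer, here called T_FGS, for fetus/graft-specific T cells. Each library was made from 200 sorted live cells. Every library is therefore a bulk measurement, in which fewer cells of a type and less RNA per cell cannot be told apart. Naive mice (n = 3) were untreated. Sensitized mice (n = 4) had rejected a 2W-OVA.BALB/c skin allograft and were taken from day 30 on. N+P mice carried a semi-allogeneic pregnancy sired by 2W-OVA.BALB/c males and were taken on post-partum days 0 to 3, with T_FGS sorted as C1 (PD1-, n = 3) or C5 (PD1+CD73+, n = 3). S+P mice were grafted first and then made pregnant by such males, with T_FGS sorted as C4 (PD1-, n = 6), C5 (PD1+CD73+, n = 6) or C7 (PD1+CD73-, n = 5). The labels give no PD1 or CD73 gate for Naive and Sensitized T_FGS, so the part of the gate and that of pregnancy in a difference cannot be told apart. Library totals ran from 6636532 to 32625243 counts, with a median of 17299849 over 56 libraries. Libraries of the same mouse and subset were summed, which left 30 samples. The labels number 6 replicates in each S+P subset, more than the study states for any group, and whether each number is a separate mouse was not tested.

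Before the comparisons, 3 samples stood apart by low detection. S+P C4 2, S+P C4 3 and S+P C7 3 had at least 1 read in 8002, 7436 and 7879 genes, under 9000, while the median sample had 15974. Their totals were 25237385, 15547934 and 21997707 counts, and S+P C5 3, also a single library, had 17188587 counts with 12652 genes detected. What set the 3 apart was not tested. At the other end, S+P C7 4 and S+P C7 6 had at least 1 read in 26805 and 21247 genes, more than any other sample. Both stay in the fits without the 3. In these 3 samples 49, 49 and 44 of the 78 members were detected, against 72 to 78 in the other 27. S+P C7 3 also carried 15268 CPM (counts scaled to the library total and by TMM factors) of 6 B cell markers, mostly Ighm and Igkc, and 16515 CPM of 5 erythroid and platelet markers, mostly Hba-a1 and Hbb-bs. The median sample had 471 and 2.63 CPM of these lists. The sum of 8 CD8 T cell markers lay between 6712 and 15559 CPM in all 30 samples, and Cd4 and Foxp3 together never passed 4.45 CPM. The sum of 3 NK cell markers (Ncr1, Klrb1c and Klra8) was 53.3 to 126 CPM in Sensitized samples, nearly all of it Klrb1c, against at most 0.0823 CPM in Naive samples and 469 CPM in S+P C7 3. The sum of 6 myeloid markers was 345 CPM in Sensitized 1, mostly Lyz2, and at most 80.4 CPM elsewhere. The part of such cells in the results was not tested. Comparisons of the members are given with all samples and without the 3.

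**Figure D1:**
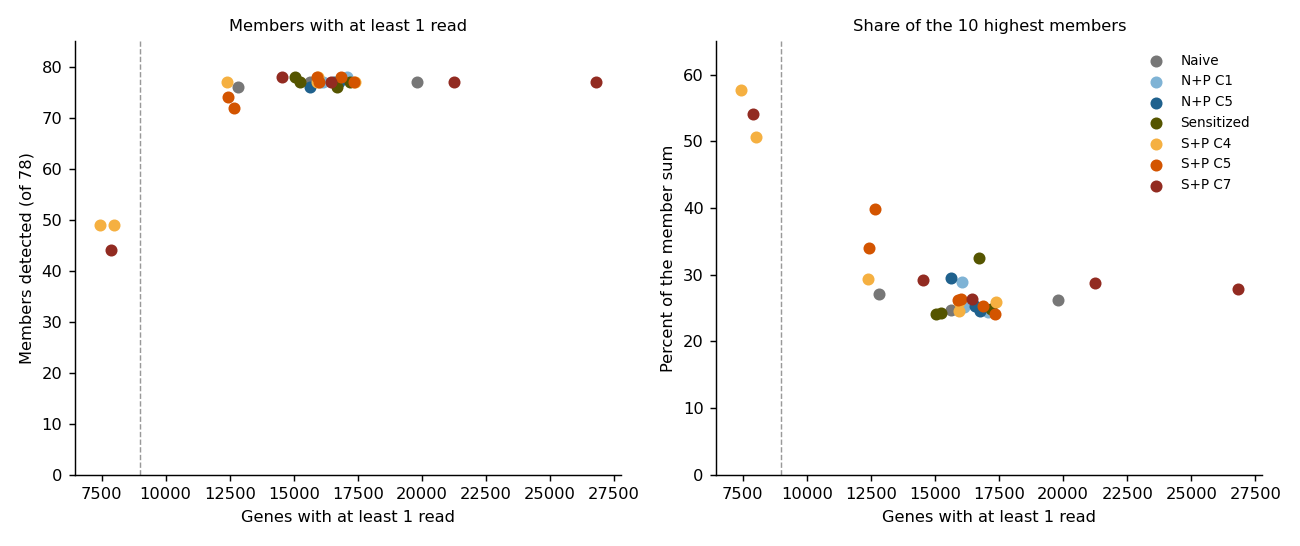
Members with at least 1 read (left) and the percent of the member sum held by its 10 highest members (right), each against the number of genes with at least 1 read. Each point is a sample, coloured by group, and the dashed line marks 9000 genes. The 3 samples left of the line detected 49, 49 and 44 members.

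The zeros of these genes sat mainly in those samples. Of 2340 member values, 124 were 0, of which 92 fell in the 3 samples with low detection and 32 in the other 27. Mrpl53, a large-subunit protein without a bacterial counterpart (GRCm39 chr6:83085887-83088572, plus strand), accounted for 21 of those 32. It was at 0 in 24 of 30 samples, never passed 0.39 CPM and was the only member that failed the low-count filter, so 77 members were tested. In the 27 samples, 67 members were detected every time.

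In all, 6 members were at 0 in all 3 low-detection samples, namely Mrpl1, Mrpl43, Mrpl44, Mrpl53, Mrps22 and Mrps30. A further 24 were at 0 in 2 of them, 26 in 1 and 22 in none. Members at 0 in 2 or 3 of these samples had a median level of 29.4 CPM in the other 27 samples, and those at 0 in none had 61.9 CPM. The medians hide exceptions, since Mrps16 (90.1 CPM elsewhere) was at 0 in 2 of the 3 samples and Mrpl14 (30.8 CPM) in none. The 10 highest members took up to 57.7% of the sum there (S+P C4 3), against 24.1% at the lowest (Sensitized 1).

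Promoter windows are shown for Mrpl23, the only member called in a fit without the low-detection samples, and for Mrps16 and Mrps27, small-subunit genes with higher values in every Sensitized than in every Naive sample. Each window is the 250 bases before the start of the gene's canonical transcript in the GENCODE annotation, in GRCm39, 5′ to 3′ on the gene's strand. That start lies 326 bases inside the outermost start of Mrpl23 and 340 bases inside that of Mrps27, so these windows lie within the gene spans given with the values, and it is the outermost start of Mrps16. They lie at chr7:142086499-142086748 (plus) for Mrpl23, chr14:20443714-20443963 (minus) for Mrps16 and chr13:99480847-99481096 (plus) for Mrps27. Capitals mark a match to CCGGAAG, letters that ETS factors such as GABP, a regulator of mitochondrial genes, are known to bind.
Mrpl23: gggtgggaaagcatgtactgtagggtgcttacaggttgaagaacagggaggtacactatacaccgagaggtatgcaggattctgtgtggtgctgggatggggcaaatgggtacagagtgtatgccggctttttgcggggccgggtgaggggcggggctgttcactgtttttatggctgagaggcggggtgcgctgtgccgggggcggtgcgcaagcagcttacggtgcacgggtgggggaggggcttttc
Mrps16: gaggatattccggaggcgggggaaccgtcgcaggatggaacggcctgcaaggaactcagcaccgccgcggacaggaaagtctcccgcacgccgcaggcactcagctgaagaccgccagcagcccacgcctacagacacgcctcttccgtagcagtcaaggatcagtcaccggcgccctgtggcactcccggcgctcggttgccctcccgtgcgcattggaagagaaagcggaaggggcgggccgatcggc
Mrps27: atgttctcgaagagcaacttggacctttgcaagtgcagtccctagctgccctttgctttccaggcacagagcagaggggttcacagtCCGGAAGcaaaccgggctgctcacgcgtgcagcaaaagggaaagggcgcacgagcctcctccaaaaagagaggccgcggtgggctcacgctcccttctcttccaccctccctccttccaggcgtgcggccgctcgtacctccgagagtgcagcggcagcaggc
On both strands, CCGGAAG was found in 14 of 78 member windows (17.9%), in 20 of 85 windows of cytosolic ribosomal protein genes (23.5%) and in 1485 of 21614 windows of all protein-coding genes (6.87%). For 35 of the 78 members the canonical start lay inside the gene, by up to 25179 bases (Mrpl48), so some windows lie within genes. For the other sets this was not counted. The core palindrome of NRF1, another regulator of mitochondrial genes, was searched as well, exact or with a single middle base left free, which includes the former. The exact palindrome was in 0 of 78 member windows, 0 of 85 cytosolic windows and 143 of all windows (0.662%), and the looser one in 7 (8.97%), 3 (3.53%) and 800 (3.7%). The window of Mrps27 held CCGGAAG 163 bases before the canonical start, and those of Mrpl23 and Mrps16 held no match to these letters.

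Levels of single members spanned a wide range. Scaled per kilobase of transcript over 30 samples, the highest mean levels were those of Mrpl42 at 120 ± 72.0 CPM per kb (mean ± SD, n = 30), Mrpl23 at 111 ± 50.2, Mrpl33 at 105 ± 50.4, Mrps21 at 105 ± 75.6 and Mrps24 at 78.02 ± 51.7. Mrpl23 codes for a protein known to lie by the exit of the peptide tunnel, and Mrpl33, Mrps21 and Mrps24 for proteins with bacterial counterparts. The lowest tested members were Mrpl47 at 5.63 ± 3.80, Mrps2 at 4.92 ± 7.22 and Mrps25 at 4.16 ± 3.21 CPM per kb. The SDs of neighbours in this order exceeded the steps between them, so the order of adjacent genes was not resolved. The order also depends on length, which was that of the canonical transcript alone. Without scaling by length, Mrps14 (119 ± 57.8 CPM) was the highest and Mrps34 (8.97 ± 6.79 CPM) the lowest tested member. By CPM per kb, Mrpl23, Mrpl33, Mrpl42 and Mrps21 were among the 10 highest members in every group, and 19 members entered the 10 highest of at least 1 group.

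**Figure D2:**
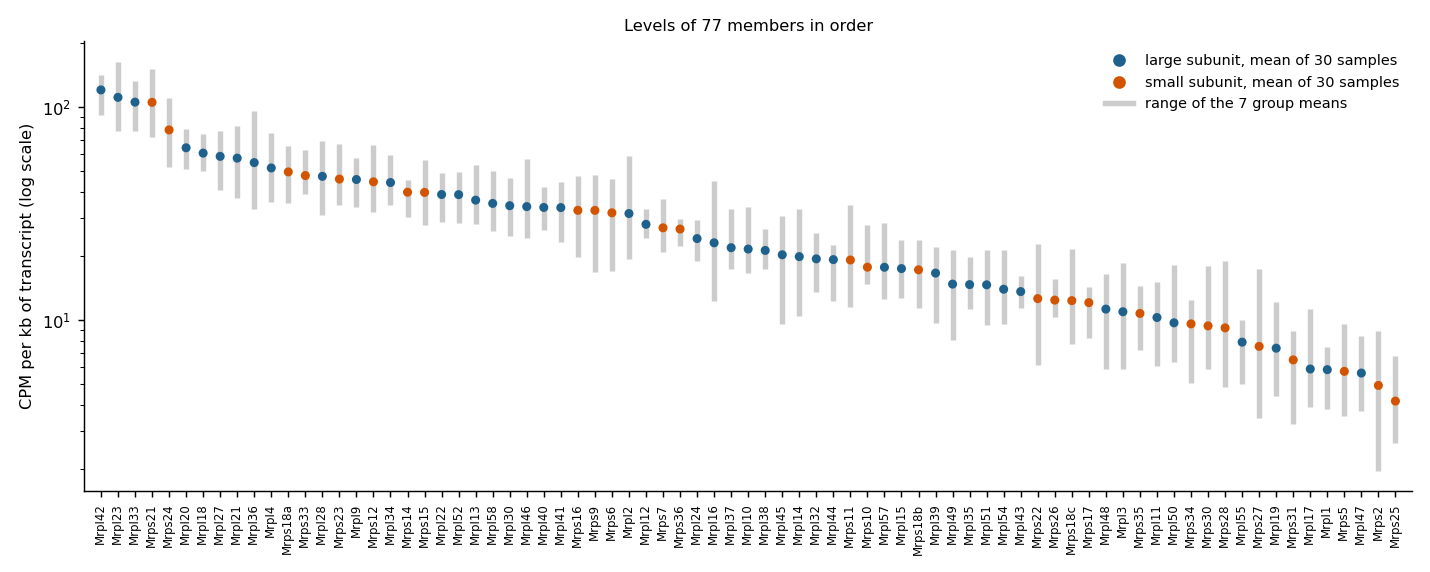
Mean level of each of the 77 tested members over 30 samples, in CPM per kb of transcript on a log axis, ordered from high to low. Blue points are large-subunit genes, orange points small-subunit genes, and grey bars span the lowest to the highest of the 7 group means. The means run from 120 for Mrpl42 to 4.16 for Mrps25.

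Members also differed in how far samples of a group scattered. On the log2(CPM + 1) scale the SD between samples of a group had a median of 1.42 over members, which was 0.61 without the 3 low-detection samples. Between technical libraries of the same mouse and subset it was 0.72 (23 pairs). The libraries of Sensitized 2 differed by a median of 1.60 log2 units over members, with 14 members at 0 in only 1 of them. In every other pair the median difference was at most 0.94. The steadiest tested members were Mrpl18 (0.35), Mrpl52 (0.48) and Mrpl23 (0.48). The most scattered were Mrpl44 (1.95), Mrps2 (1.89) and Mrpl9 (1.82), which stood at 1.52, 1.51 and 0.56 without the 3 samples. Mrps16 was among the scattered members at 1.79 and stood at 0.41 without the 3 samples, in 2 of which it was at 0. For comparison, cytosolic ribosomal protein genes, which are far more abundant, had a median SD of 0.54 between samples and 0.26 between technical libraries.

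The dispersion in the edgeR fit showed the same split. The members' median biological coefficient of variation was 0.98 with all samples and 0.46 without the 3, against 0.97 and 0.50 for other genes of like mean level. The scatter of these genes was thus close to that of other genes at their level.

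Summed over the 78 genes, the group means ran from 3262 to 4195 CPM. The sums were 5186, 3480 and 3442 CPM in the 3 Naive samples and 4420, 5311, 3585 and 3465 CPM in the 4 Sensitized samples. They were 4002, 3508 and 3141 CPM for N+P C1 and 3450, 3420 and 2915 CPM for N+P C5. In the S+P groups the lowest, median and highest values were 2819, 3725 and 4380 CPM for C4, 3289, 3587 and 3923 CPM for C5, and 3442, 3588 and 4870 CPM for C7. Naive 1 rested on a single library with 12829 genes detected, because its other library was also deposited under S+P C4 1 and was left out. Naive 1 and Sensitized 2 were the high samples. Each also had the highest B cell marker sum of its group, at 2056 CPM in Naive 1 and 1188 CPM in Sensitized 2. The other Naive samples held 848 and 671 CPM of these markers, and the other Sensitized samples 571, 223 and 379 CPM. N+P C5 1 held 2222 CPM of them with a member sum of 3450 CPM. Every Sensitized sample lay above every N+P C5 sample, though by only 3465 against 3450 CPM at the closest, and the ranges of neighbouring groups overlapped. From high to low the group means were 4195 ± 857 CPM for Sensitized, 4036 ± 996 for Naive, 3824 ± 594 for S+P C7, 3687 ± 521 for S+P C4, 3571 ± 238 for S+P C5, 3551 ± 432 for N+P C1 and 3262 ± 301 for N+P C5 (mean ± SD, n as above). Neighbours in this order differed by less than 1 SD. The share of all counts was between 0.257% and 0.515%.

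The 85 cytosolic ribosomal protein genes, taken for comparison with earlier results on them known, had a sum of 126250 ± 10973 CPM for Naive (n = 3), 105380 ± 18281 for N+P C1 (n = 3), 73001 ± 10197 for N+P C5 (n = 3) and 83682 ± 16458 in Sensitized (n = 4). The ratio of the cytosolic to the mitochondrial sum was 26.7, 33.8 and 35.7 in Naive samples, 30.3, 31.1 and 27.2 for N+P C1, 23.5, 22.4 and 21.1 for N+P C5, and 21.1, 18.7, 22.3 and 17.9 in Sensitized. Every Naive and N+P C1 sample lay above every N+P C5 and Sensitized sample. In S+P C7 the ratio was 10.6 to 20.96 (15.97 ± 4.23, n = 5), below the range of Naive, and 14.7 ± 3.67 (n = 4) without S+P C7 3. In S+P C5 it was 14.02 to 32.01 (20.1 ± 6.18, n = 6), with S+P C5 2 alone at 32.01. In S+P C4 it was 13.5 to 43.3 (23.3 ± 10.9, n = 6), with 43.3 in the low-detection sample S+P C4 3, and 17.6 ± 4.28 (n = 4) without the low-detection samples.

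**Figure D3:**
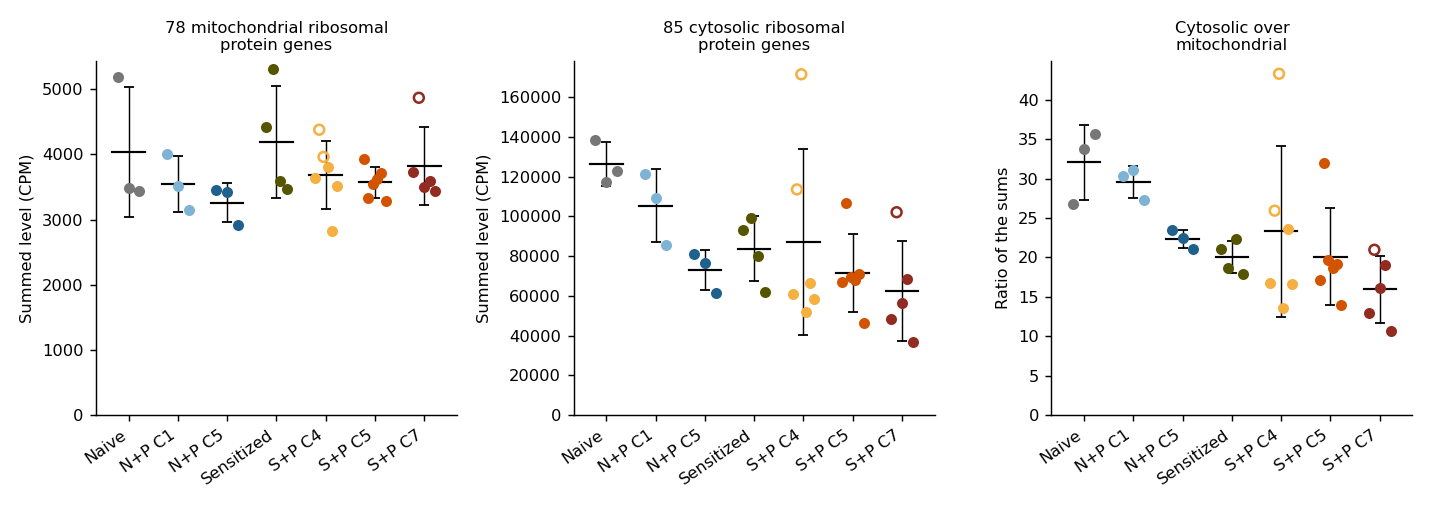
Summed level of the 78 mitochondrial and of the 85 cytosolic ribosomal protein genes in CPM, and the ratio of the cytosolic to the mitochondrial sum, for each sample (points) by group. Lines and bars are the mean ± SD, and open points are the 3 samples under 9000 detected genes. The ratio lies at 26.7 or above in the Naive samples and at 23.5 or below in N+P C5 and Sensitized.

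The balance of the subunits is given as a ratio, with no test. The mean level per kb of large-subunit genes over that of small-subunit genes was 1.32 ± 0.020 in Naive (n = 3), 1.31 ± 0.073 in N+P C1 (n = 3), 1.16 ± 0.099 in N+P C5 (n = 3) and 1.27 ± 0.065 in Sensitized (n = 4). Naive samples (1.32, 1.297 and 1.34) lay above all N+P C5 samples (1.27, 1.096 and 1.11), and the Naive range overlapped those of N+P C1 and Sensitized. For S+P C4 it was 1.10 ± 0.27 (n = 6), for S+P C5 1.21 ± 0.062 (n = 6) and for S+P C7 1.23 ± 0.16 (n = 5). The lowest value, 0.564, came from S+P C4 3, and without the low-detection samples S+P C4 stood at 1.18 ± 0.047 (n = 4).

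Sensitized against Naive asks how memory of a graft differs from the untreated state. With all samples, 0 of 77 members were called (edgeR quasi-likelihood test, Benjamini-Hochberg adjusted p below 0.1 and an absolute log2 fold change above 0.9), beside 0.153% of all 19657 genes tested. No member had an unadjusted p below 0.05, beside 3.84% of all genes higher and 3.99% lower. Members stood above 0 in 45 cases and below 0 in 32 (44.3% of all genes), and their median log2 fold change was 0.08, beside 0.04 over all genes. For cytosolic ribosomal protein genes the median was −0.61, with 82 of 84 below 0. Without the low-detection samples 0 members were called (0.782% of all genes), the medians were 0.07 and −0.62, 48 cytosolic genes and 2 members were lower at an unadjusted p below 0.05 (5.04% of all genes), and 2 members were higher (5.44%). Naive 1 set much of the Naive level of the members: without it their median was 0.31, and without Sensitized 2 it was −0.12.

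Mrps16, a small-subunit protein with a bacterial counterpart (GRCm39 chr14:20439372-20443713, minus strand), had 55.0, 46.1 and 52.0 CPM in Naive and 89.2, 193, 80.2 and 65.1 CPM in Sensitized samples. The lowest Sensitized value exceeded the highest Naive one, and Sensitized 2 was far above the others. The log2 fold change was 1.07 ± 1.16 (SE) with an edgeR adjusted p of 1.00 over all samples, and 1.06 ± 0.33 with an adjusted p of 0.262 without the low-detection samples. Without Sensitized 2 it was 0.62. Mrps27, a small-subunit protein of the pentatricopeptide repeat family with no bacterial counterpart (GRCm39 chr13:99480757-99552086, plus strand), had 6.63, 13.6 and 8.27 CPM in Naive and 60.6, 45.2, 15.1 and 20.9 CPM in Sensitized samples. Again the groups did not overlap, with a log2 fold change of 1.90 ± 1.49 (edgeR adjusted p = 0.976), or 1.88 ± 0.73 (adjusted p = 0.472) without the 3 samples. The exons of Mrps27 share 118 bases with Ptcd2 on the other strand, and the strand setting of the counting is not given in the sources used here.

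The fold changes of Mrps5 and Mrps6 were below 0, and neither passed the test. Mrps5, the counterpart of a bacterial protein of the mRNA entry site (GRCm39 chr2:127429135-127448789, plus strand), had 46.3, 38.3 and 44.2 CPM in Naive and 14.1, 13.3, 23.7 and 12.6 CPM in Sensitized samples. The groups did not overlap, and the log2 fold change was −1.43 ± 1.35 (edgeR adjusted p = 1.00), or −1.43 ± 0.53 (adjusted p = 0.456) without the 3 samples. Mrps6, also with a bacterial counterpart (GRCm39 chr16:91854965-91909592, plus strand), had 60.3, 22.9 and 27.8 CPM in Naive and 15.9, 14.8, 17.2 and 23.0 CPM in Sensitized samples. The ranges met at 22.9 and 23.0 CPM, and the log2 fold change was −1.06 ± 1.03 (adjusted p = 1.00), or −1.06 ± 0.51 (adjusted p = 0.472) without the 3, and −0.51 without Naive 1. Of the exons of Mrps6, 709 bases lie within Slc5a3 and Gm49711 on the same strand, so its reads are uncertain. Samples did not overlap for 2 members higher and 2 lower in all, beside 3.78% and 3.81% of all genes. The other members with the smallest p-values were Mrpl33 (log2 fold change 0.60 ± 0.59) and Mrpl46 (1.22 ± 1.302) on the higher side and Mrpl30 (−0.54 ± 0.59) and Mrps25 (−0.997 ± 1.25) on the lower side. Without Sensitized 2 the first pair stood at 0.28 and 0.57, and without Naive 1 the second at −0.30 and 0.25.

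**Figure D4:**
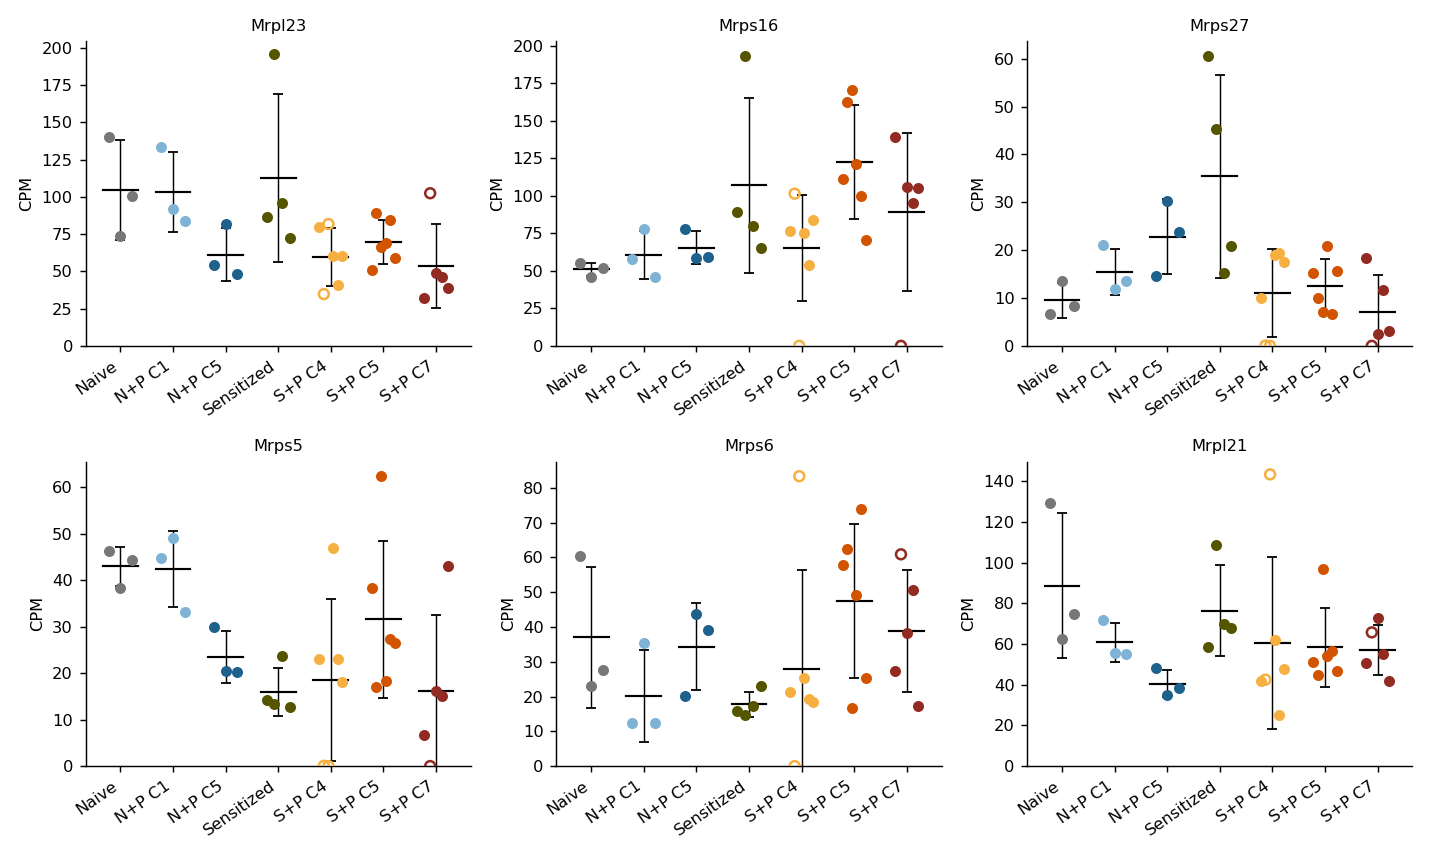
Level in CPM of 6 members (Mrpl23, Mrps16, Mrps27, Mrps5, Mrps6 and Mrpl21) in each sample (points) by group. Lines and bars are the mean ± SD, and open points are the 3 samples under 9000 detected genes. Mrps5 lies between 38.3 and 46.3 in Naive and between 12.6 and 23.7 in Sensitized samples.

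N+P C5 against Naive asks what pregnancy goes with in T_FGS without earlier graft memory, in the PD1+CD73+ subset. With all samples 0 of 77 members were called by edgeR, beside 0.0407% of all genes, and none had an unadjusted p below 0.05 (3.23% of all genes higher, 2.1% lower). Members were below 0 in 57 cases (47.7% of all genes), with a median log2 fold change of −0.31, beside −0.77 for cytosolic genes and 0 over all genes. Naive 1 weighed on this value: without it the members' median was −0.05. Samples did not overlap for 10 members lower (5.48% of all genes) and 3 higher (7.4%), and for 71 of 84 cytosolic genes lower. In the fit without the low-detection samples the same samples did not overlap for 10 members lower (5.31%) and 6 higher (7.69%). Without the low-detection samples, which belong to neither group but enter the shared dispersion, 0 members were called (0.614% of all genes), their median was −0.28, and 6 members (Mrpl21, Mrpl48, Mrpl36, Mrpl28, Mrpl23 and Mrpl45) and 63 cytosolic genes were lower at an unadjusted p below 0.05, beside 2.81% of all genes lower, and 0 members were higher (4.89%).

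Mrpl21, a large-subunit protein with a bacterial counterpart, had 129, 62.2 and 74.5 CPM in Naive and 48.2, 35.04 and 38.4 CPM in N+P C5 samples. The groups did not overlap, with Naive 1 again the highest. The log2 fold change was −1.13 ± 0.63 (edgeR adjusted p = 0.764), or −1.10 ± 0.37 (adjusted p = 0.378) without the 3 samples. Mrpl23 followed with −0.77 ± 0.58, Mrpl36 with −0.83 ± 0.67 and Mrpl54 with −1.16 ± 0.99, the last sharing 3074 exon bases with Matk on the other strand. Without Naive 1 the values were −0.75 for Mrpl21, −0.50 for Mrpl23, −0.53 for Mrpl36 and −0.68 for Mrpl54. On the higher side stood Mrps27 (1.26 ± 1.52), Mrpl55 (0.69 ± 1.304), Mrpl33 (0.34 ± 0.63) and Mrpl52 (0.30 ± 0.60), and none of these reached an unadjusted p below 0.05. Mrpl33 stood at 0.11 without N+P C5 3.

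In the PD1- subset of N+P mice, N+P C1 against Naive, 0 of 77 members were called, as was 0% of all genes. The median log2 fold change was −0.21 for members and −0.24 for cytosolic genes, with Mrpl50 (−1.47 ± 1.395) and Mrps31 (1.45 ± 1.76) at the extremes of the smallest p-values. The median also rested on Naive 1, since without it the members' median was 0.05 and Mrps31 stood at 0.87. Mrps30 stood at 0.72 and Mrpl21 at −0.55, and without Naive 1 at 0.32 and −0.17. Without the low-detection samples, 0 members were called (0.0972% of all genes), the median was −0.19, and Mrpl50 alone was lower at an unadjusted p below 0.05 (1.62% of all genes lower, 2.73% higher). N+P C5 against N+P C1 gave 0 of 77 members called (0.00509% of all genes) and medians of −0.08 and −0.54. Mrpl23 was lower in C5 by every sample (54.3, 81.7 and 47.9 against 134, 92.1 and 83.7 CPM), with a log2 fold change of −0.75 ± 0.58 (edgeR adjusted p = 1.00), and −0.52 without N+P C1 1, which also took the members' median to 0.08. Mrps6 (0.77) and Mrpl50 (0.61) stood above 0 and Mrpl21 (−0.58) below, none at an unadjusted p below 0.05. Mrps6 stood at 1.46 without N+P C1 2, and Mrpl50 at 0.30 without N+P C5 3. With the low-detection samples left out, 0 members were called (0.0767%), the median was −0.07, and Mrpl23 alone was lower at an unadjusted p below 0.05 (2.35% of all genes lower, 3.41% higher). Both contrasts with Naive use the same 3 Naive samples, and N+P C1 and N+P C5 are each compared with them.

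S+P C5 against Sensitized asks what pregnancy goes with in T_FGS that already carried graft memory, in the PD1+CD73+ subset. With all samples 0 of 77 members were called by edgeR, beside 0.0712% of all genes, and none had an unadjusted p below 0.05 (5.26% of all genes higher, 7.72% lower). The median log2 fold change was −0.26 for members (53 below 0, beside 50.1% of all genes) and −0.16 for cytosolic genes, against −0.01 over all genes, and −0.17 for members without Sensitized 2. With the low-detection samples left out, 0 members were called (1.02% of all genes), their median was −0.24, and 2 were higher and 6 lower at an unadjusted p below 0.05, beside 7.47% and 9.71% of all genes.

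The 2 on the higher side were Mrps6 and Mrps5, the same genes that stood lower in Sensitized than in Naive samples. Both comparisons use the same 4 Sensitized samples, so this is not independent of that. Mrps6 had 16.7 CPM at the lowest, 53.5 at the median and 73.8 at the highest in S+P C5, against 14.8 to 23.0 in Sensitized samples. S+P C5 3 fell within the Sensitized range, and the log2 fold change was 1.42 ± 0.92 (edgeR adjusted p = 0.657), or 1.44 ± 0.46 (adjusted p = 0.182) without the 3. Mrps5 gave 0.99 ± 1.18 with all samples (1.01 ± 0.47 without the 3). On the lower side, Mrps27 had 6.61 to 20.9 CPM in S+P C5 against 15.1 to 60.6 in Sensitized samples, which overlapped (−1.49 ± 1.17, adjusted p = 0.844, or −1.47 ± 0.57 and 0.211 without the 3). Other lower members by p were Mrpl23 (−0.69 ± 0.45), Mrpl16 (−1.54 ± 1.22) and Mrpl49 (−1.404 ± 1.24), and other higher ones Mrpl32 (0.48 ± 0.50) and Mrpl52 (0.38 ± 0.48). Mrpl32 stood at 0.20 without S+P C5 3 and at 0.81 without Sensitized 2.

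S+P C7 against Sensitized is the same question for the PD1+CD73- subset. With all samples 0 of 77 members were called by edgeR, beside 0.0305% of all genes, and 1 (Mrpl23) was lower at an unadjusted p below 0.05, beside 2.84% of all genes lower and 7.36% higher. The median log2 fold change was −0.32 for members (53 below 0, beside 49.9% of all genes) and −0.39 for cytosolic genes, and −0.23 and −0.62 without S+P C7 3 and the other low-detection samples. In this smaller set 3 members (Mrpl23, Mrps27 and Mrpl48) and 52 cytosolic genes were lower at an unadjusted p below 0.05, beside 3.6% of all genes, and 0 members were higher (8.23%). With all samples, values did not overlap for 4 members lower (Mrps28, Mrps22, Mrps18a and Mrpl10), beside 1.38% of all genes. Leaving out Sensitized 2 alone took the members' median to −0.20.

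Mrpl23 (GRCm39 chr7:142086423-142094486, plus strand) had the smallest p-value of any member in this comparison. It had 86.3, 196, 96.1 and 72.7 CPM in the Sensitized samples and 32.3, 102, 48.9, 45.9 and 38.6 CPM in the S+P C7 samples. The value of 102 CPM was that of S+P C7 3, and the other 4 lay below every Sensitized sample. With all samples the log2 fold change was −1.07 ± 0.47 (edgeR adjusted p = 0.473, DESeq2 adjusted p = 0.0786, which made the call, as for 3.46% of all genes in DESeq2). Without the low-detection samples it was −1.44 ± 0.31 (95% interval −2.07 to −0.80, edgeR adjusted p = 0.0458), and Mrpl23 was then called, beside 0.353% of all genes. That call rested on single samples. Without Sensitized 2 as well it was −1.03 (adjusted p = 0.230), without S+P C7 1 −1.34 (0.120), without S+P C7 5 −1.48 (0.128) and without S+P C7 6 −1.39 (0.175), so the call was lost each time. Leaving out any of the other 4 samples of this comparison kept it, at −1.52 to −1.60.

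Against Sensitized T_FGS, the log2 fold change of Mrpl23 was −0.92 ± 0.45 for S+P C4 (unadjusted p = 0.0475, edgeR adjusted p = 0.387) and −0.69 ± 0.45 for S+P C5 (adjusted p = 0.654). These contrasts share the 4 Sensitized samples, and without Sensitized 2 the values were −0.51 (C4), −0.28 (C5) and −0.66 (C7). The levels were 34.7, 60.3 and 81.8 CPM (lowest, median, highest) for S+P C4 and 51.01, 67.8 and 89.3 CPM for S+P C5, so both overlapped the Sensitized range. Naive and N+P C1 samples held 73.5 to 140 CPM and 83.7 to 134 CPM, and Sensitized against Naive gave 0.11 ± 0.54.

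Among the other S+P C7 members, Mrps27 had 18.3, 0, 2.57, 11.6 and 3.06 CPM, with the 0 in S+P C7 3 (log2 fold change −2.32 ± 1.26, edgeR adjusted p = 0.578, or −1.98 ± 0.66 and 0.397 without the 3). Only S+P C7 1 reached the Sensitized range. Mrps28 stood at −1.31 ± 1.10 and Mrpl48 at −1.26 ± 1.08. The members with the smallest p on the higher side, Mrps21 (0.88 ± 0.60), Mrps24 (0.69 ± 0.53), Mrpl36 (0.73 ± 0.56) and Mrpl30 (0.66 ± 0.53), owed this to S+P C7 3, which held 372 CPM of Mrpl36 and 387 CPM of Mrpl30 against at most 74.7 and 99.0 in the other 4 samples. Without it the 4 values were −0.05, −0.05, −0.30 and −0.09. The same sample decided S+P C7 against S+P C5, where 0 of 77 members were called (0% of all genes) and Mrpl36 (1.198 ± 0.50) and Mrpl57 (1.19 ± 0.56) were higher at an unadjusted p below 0.05 (10.1% of all genes, and 2.65% lower). Without S+P C7 3 they stood at 0.17 and 0.42. On the lower side were Mrpl32 (−0.51) and Mrpl33 (−0.52), neither at an unadjusted p below 0.05. Mrpl32 stood at −0.22 without S+P C5 3, and Mrpl33 at −0.30 without S+P C7 3. In that comparison the medians were −0.10 for members and −0.16 for cytosolic genes, and −0.05 and −0.49 without the low-detection samples. Then 0 members were called (0% of all genes), and Mrpl23 alone was lower at an unadjusted p below 0.05 (−0.77 ± 0.28, edgeR adjusted p = 0.278, beside 3.27% of all genes lower and 10.4% higher). Same-numbered C7 and C5 samples pair, and with the number as a block Mrpl36 stood at 0.56 and Mrpl57 at 0.62 and 0 members had an unadjusted p below 0.05 over all samples, with a median of −0.37. With the block on the 4 pairs of ordinary detection, 0 members were called (0.00739% of all genes). Mrpl23 was lower in all 4 pairs (−0.66 ± 0.18, edgeR adjusted p = 0.457), Mrps6, Mrps17 and Mrps25 were also lower and Mrps15 higher at an unadjusted p below 0.05 (3.66% of all genes lower, 3.83% higher), and the median was −0.015.

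In S+P C4, the PD1- subset, 0 of 77 members were called against Sensitized (0.00509% of all genes), and the lone member with an unadjusted p below 0.05 was Mrpl23 on the lower side (8.55% of all genes lower, 4.14% higher). The median over all genes was −0.14 here, and 0 without the low-detection samples. It was −0.29 for members with and without the low-detection samples, and −0.14 without Sensitized 2. For cytosolic genes the median was 0.11 with all samples and −0.43 without the 3, so its sign turned on S+P C4 2 and S+P C4 3. Leaving the 3 out, 0 members were called (0.0205%), and Mrpl23, Mrpl51, Mrpl21 and Mrps28 were lower at an unadjusted p below 0.05 (6.76% of all genes lower, 4.66% higher). Members with the smallest p were Mrpl16 (−1.82 ± 1.22), Mrps24 (0.71 ± 0.51) and Mrps18c (0.85 ± 0.61), the last at −0.36 without the 3 and at 0.43 without S+P C4 2 alone, which also took Mrps24 to 0.44. Over all settings tried, Mrps24 ran from 0.20 to 1.03 and Mrpl16 from −4.35 to −1.20. Next, S+P C5 against N+P C5, the same subset with and without earlier graft memory, gave 0 of 77 members called (0% of all genes), with medians of 0.13 for members and 0 for cytosolic genes. Mrpl32 stood at 0.67 ± 0.56, Mrpl21 at 0.53 ± 0.55, Mrpl57 at −0.61 ± 0.64 and Mrps27 at −0.86 ± 1.26. Single samples moved these values, Mrpl32 to 0.38 and Mrpl21 to 0.32 without S+P C5 3, Mrpl57 to −0.39 without S+P C5 2, and the members' median to 0.041 without N+P C5 3 and 0.23 without N+P C5 1. In the fit without the 3, 0 members were called (0.0818%), the members' median was 0.12, and Mrps16 alone was higher at an unadjusted p below 0.05 (0.91 ± 0.31, edgeR adjusted p = 0.603, beside 3.08% of all genes higher and 4.59% lower).

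**Figure D5:**
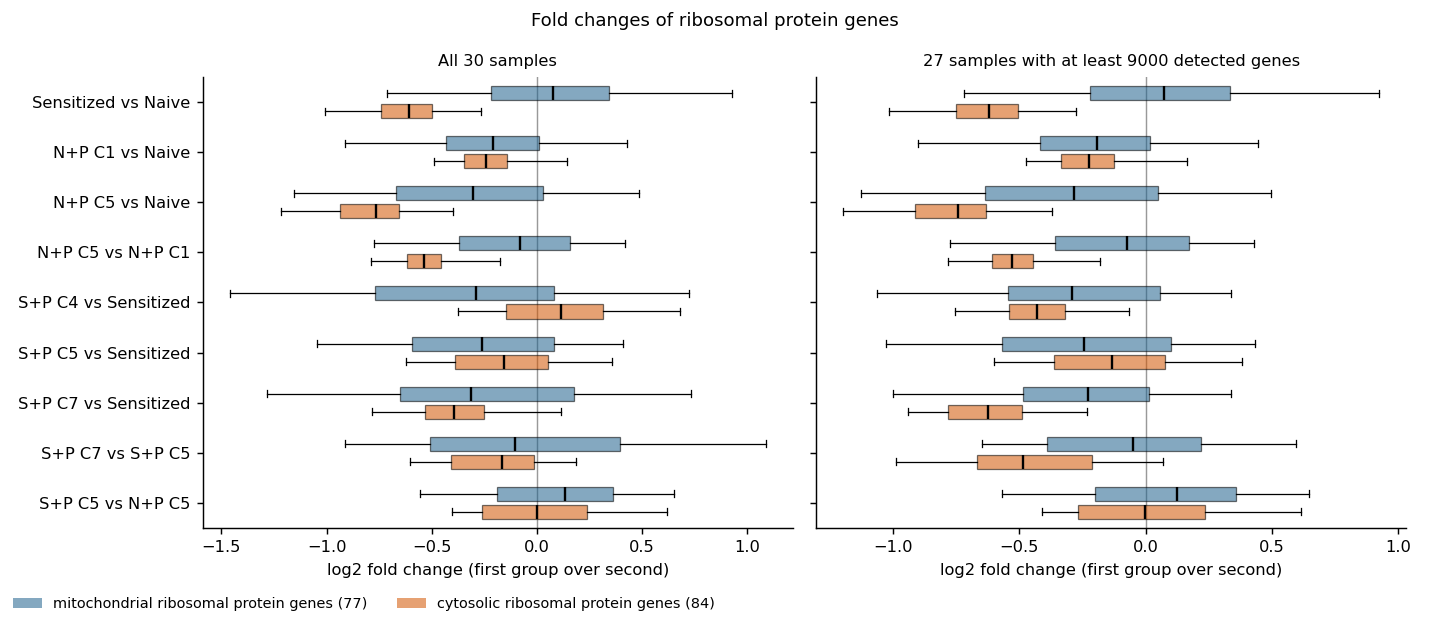
Log2 fold changes of the 77 tested mitochondrial (blue) and 84 cytosolic (orange) ribosomal protein genes in 9 comparisons, with all 30 samples (left) and with the 27 of at least 9000 detected genes (right). Boxes span the middle 50% of genes with the median as a line, and whiskers the 5th to 95th percentiles. In Sensitized against Naive the members centre on 0.08 and the cytosolic genes on −0.61.

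Whether the C5 subset differed from its control by another amount with graft memory than without was tested as (S+P C5 minus Sensitized) minus (N+P C5 minus Naive), a contrast in which the gate and pregnancy cannot be told apart either. With all samples 0 of 77 members were called (0.0254% of all genes), and the median difference was 0.03 for members and 0.60 for cytosolic genes, against −0.06 over all genes. The smallest p-values belonged to Mrps27 (−2.76 ± 1.94), Mrps6 (1.53 ± 1.44), Mrps5 (1.86 ± 1.88) and Mrpl46 (−1.64 ± 1.72), all with an edgeR adjusted p of 1.00. Mrps6 stood at 0.98 without Naive 1 and Mrpl46 at −0.99 without Sensitized 2. With the low-detection samples left out 0 members were called (0.138% of all genes), the median was 0.03, and the first 3 had an unadjusted p below 0.05, beside 3.88% of all genes higher and 4.48% lower.

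The tests do not show that these genes were alike in the groups. With all samples included, the 95% interval of 1 member in Sensitized against Naive lay within a 2-fold difference in both directions (1.3%, beside 4.77% of all genes). With those 3 samples left out this held for 19 members (24.7%, beside 11.4% of all genes). For N+P C5 against Naive it held for 0 members (6.53% of all genes) and then 10 (11.8%), for S+P C5 against Sensitized for 1 (4.52%) and 23 (13.1%), and for S+P C7 against Sensitized for 1 (2.79%) and 22 (10.7%).

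The cytosolic genes with the smallest p-values are given for comparison. Rps3a1, a small-subunit protein, had 2737 ± 151 CPM in Naive (n = 3) and 1550 ± 141 CPM in Sensitized samples (n = 4), and the groups did not overlap (log2 fold change −0.82 ± 0.25, edgeR adjusted p = 0.540, DESeq2 adjusted p = 0.0388, edgeR 0.0587 without the 3 low-detection samples). Rpl8 of the large subunit had 1294 ± 135 and 725 ± 178 CPM (−0.84 ± 0.28, edgeR 0.627, DESeq2 0.0400, edgeR 0.0814 without the 3), and Rps20 1758 ± 302 and 734 ± 187 CPM (−1.26 ± 0.50, adjusted p = 0.627). Of these, Rps3a1 and Rpl8 miss the fold limit of the call. In N+P C5 against Naive, Rpl6 (−0.91 ± 0.32), Rps3a1 (−0.77 ± 0.27) and Rpl4 (−0.81 ± 0.32) led. In S+P C7 against Sensitized, Rpl14 (−0.78 ± 0.24), Rps2 (−0.78 ± 0.29) and Rpl29 (−0.80 ± 0.32) did. With all samples 0 of 84 were called in every comparison by edgeR, and without the 3 samples Rpl32 fell in N+P C5 against Naive (−0.97 ± 0.24, adjusted p = 0.0583, beside 0.614% of all genes called) and Rps19 (−1.26 ± 0.21, 0.00359) and Rps18 (−0.91 ± 0.20, 0.0495) fell in S+P C7 against Sensitized. Rps4l and Rpl3l also ranked by p in S+P C5 and C7, but lay at or near 0 in most samples, and no fold is given.

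The partners of the mitochondrial ribosomal proteins were read from lists of their roles, and with all samples 0 genes of any such list were called in Sensitized against Naive, N+P C5 against Naive, S+P C5 against Sensitized or S+P C7 against Sensitized. Proteins of the same ribosome with other symbols (5 genes) had medians of −0.17, −0.67, −0.24 and −0.58 in these 4 comparisons. One of them, Chchd1 of the small subunit, had 68.8 ± 3.46 CPM in Naive, 42.6 ± 8.90 for N+P C1, 37.0 ± 11.2 for N+P C5, 88.3 ± 64.1 in Sensitized (38.7 to 182), 25.9 ± 15.5 for S+P C4, 63.7 ± 22.4 for S+P C5 (42.7 to 97.8) and 36.1 ± 19.9 for S+P C7. The list for ribosome assembly (26 genes) had medians of 0.13, −0.13, −0.43 and −0.25. Those of the mitochondrial translation factors (16 genes) were 0.16, −0.16, −0.25 and −0.07. The mitochondrial aminoacyl-tRNA synthetases (20 genes), which charge tRNAs for this ribosome, had medians of −0.10, −0.43, −0.30 and −0.42. Without the 3 samples the medians for S+P C7 were −0.25 for the other proteins of this ribosome, −0.35 for assembly, −0.05 for the factors and −0.09 for the synthetases, and 0 genes of these 4 lists were called in the 4 comparisons. Lars2, the leucyl-tRNA synthetase, had 1577 ± 669 CPM in Naive (n = 3) and 596 ± 341 in Sensitized samples (n = 4), with overlapping ranges and a log2 fold change of −1.403 ± 0.55 (unadjusted p = 0.0155, edgeR adjusted p = 0.627), and −1.41 ± 0.49 (adjusted p = 0.392) without the 3. Tfam, which packs mitochondrial DNA and starts its transcription, had 46.8 ± 27.5 and 92.1 ± 43.0 CPM in the same groups (log2 fold change 0.98 ± 0.78, edgeR adjusted p = 0.996, or 0.96 ± 0.41 and 0.472 without the 3).

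The ribosomal RNAs of the same ribosome took shares of the counts that ranged widely between samples. mt-Rnr2, of the large subunit, took 0.629% (S+P C7 6) to 10.4% (S+P C4 3) of counts, with a median of 1.503%, and mt-Rnr1, of the small subunit, 0.0451% to 1.68%. Both maxima came from S+P C4 3, where the mitochondrial genome held 24.3% of counts against a median of 3.39%. In S+P C4 against Sensitized their log2 fold changes were 2.06 ± 0.73 for mt-Rnr2 and 2.601 ± 1.004 for mt-Rnr1 (edgeR adjusted p = 0.317 for each). DESeq2 called both higher (adjusted p = 0.0384 and 0.0485, beside 4.65% of all genes called), and in edgeR they were 0.35 ± 0.48 and 0.55 ± 0.77 without the low-detection samples. In Sensitized against Naive they stood at −0.46 ± 0.80 for mt-Rnr2 and −0.70 ± 1.06 for mt-Rnr1.

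Among 9 nuclear regulators of mitochondrial genes was Myc, a transcription factor known to drive ribosome production. It had 147 ± 47.5 CPM in Sensitized (106 to 193, n = 4), 37.5 ± 16.7 for S+P C5 (17.7 to 65.9, n = 6) and 22.02 ± 18.1 for S+P C7 (0 to 45.5, n = 5). In S+P C4 it ran from 0 to 102.7 CPM, with a median of 34.6 (n = 6), so no S+P range overlapped that of Sensitized samples. With all samples the log2 fold changes against Sensitized were −1.97 ± 1.12 for S+P C5 (edgeR adjusted p = 0.520) and −2.74 ± 1.22 for S+P C7 (adjusted p = 0.473), and −1.88 ± 1.12 for S+P C4 (adjusted p = 0.569). With the low-detection samples left out Myc was called for S+P C5 and S+P C7 (beside 1.02% and 0.353% of all genes), at −1.95 ± 0.42 (adjusted p = 0.0192) and −2.41 ± 0.49 (adjusted p = 0.0284), and leaving out S+P C7 6 as well lost the second call (−2.12 ± 0.50, adjusted p = 0.147). In S+P C4 it was then −1.26 ± 0.47 (adjusted p = 0.433) and was not called. Sensitized against Naive gave −0.29 ± 1.33 for Myc. Ppargc1a, a coactivator of mitochondrial biogenesis, was at or near 0 in most samples and reached 19.7 CPM in a single Sensitized and 8.27 CPM in a single S+P C7 sample, and no fold is given.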

How the data were processed

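Bulk RNA was measured in 56 libraries made with SmartSeq2 and sequenced as paired reads of 150 bases. The authors deposited raw gene counts, made per the study's methods with Cutadapt 3.4, STAR 2.6.1b on GRCm39 with non-unique reads removed, and featureCounts 2.0.1. The annotation release and strand setting are not given in the sources used here, so genes that overlap in exons cannot be separated. Reads of near-identical copies were removed with non-unique reads, which bears on members with pseudogenes. Gene names came from GENCODE on GRCm39 (54749 of 55359 rows matched).

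Technical libraries were summed. A library deposited with identical values under Naive 1 and S+P C4 1 was left out of both, and a pair in S+P C7 with r = 0.997 on log2(count + 1) was averaged and counted as 1 sample, where other technical pairs of one mouse reached at most 0.929. Levels are CPM scaled by TMM factors. Tests used edgeR 4.0.16 (quasi-likelihood, robust, filterByExpr with a minimum count of 10) in R 4.3.3, in 1 fit of 7 groups, with Benjamini-Hochberg adjustment over 19657 genes. DESeq2 1.42.0 was the alternative, and the scripts were tested on simulated data. The cells were sorted in more than a single experiment, which the labels do not assign to samples, so no batch could be tested, and p-values measure the spread between these samples only. Lists are given by counts and medians, with no test of a list.

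Named were all members called in any comparison, the 4 in each direction with the smallest unadjusted p in the main comparisons and 2 in the others, the 5 highest and 3 lowest by CPM per kb, members that failed the filter, 2 genes of each related list, 3 cytosolic genes per main comparison and both mitochondrial rRNAs, of which some are given by their list alone. Left out of the text are other members' values and the medians of the lists for mitochondrial DNA upkeep and nuclear regulators. The gamma-delta T cell markers, whose sum never passed 9.67 CPM, are left out as well. Mitochondrial mRNAs (13 genes) are given for the N+P groups only, with 0 called by edgeR over all samples. All 13 stood above 0 in N+P C1 against Naive (median log2 fold change 1.21, beside 45.6% of all genes below 0). All 13 stood below 0 in N+P C5 against N+P C1 (−1.02, beside 47.9%), and N+P C5 against Naive gave a median of 0.16. These mRNAs took 5.30%, 1.59% and 2.62% of counts in N+P C1 samples. They took 1.17%, 1.80% and 1.77% in Naive and 1.60%, 1.31% and 2.47% in N+P C5 samples. The ranges thus overlapped, N+P C1 1 was the highest, and its part in these fold changes was not tested. The members and lists were chosen with earlier results of these data known. Promoter windows were read from the GRCm39 sequence, and printed for genes that are also in a RefSeq promoter table of another build. Replicate numbers were checked as pairs by the correlation of deviations from group means. In S+P, same-numbered C7 and C5 samples had a mean r of 0.157 (lowest 0.123, 5 pairs) and C7 and C4 samples 0.193 (lowest 0.12, 5 pairs), so these pair by number. For S+P C5 and C4 it was 0.139 (lowest 0.0974, 6 pairs), against −0.0187 for other numbers. For N+P C5 and C1 it was 0.0749 (lowest 0.0225, 3 pairs), against −0.0374. Those may pair too, and the main test of N+P C5 against N+P C1 did not use it. In the other pairs of groups checked the mean r was 0.0735 or less and the lowest 0.0232 or less.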

Additional observations from a re-analysis of the deposited data

Results flagged for a closer look

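Dixon's test at the 95% level was run on 120 groups of 4 to 10 samples (sums, counts and log2(CPM + 1) of named members), and gave 30 values that stood apart. Chance gives about 1 in 20 groups. S+P C7 3 stood apart in 14 of them: it detected 44 members, had a summed level of 4870 CPM and a mean log2(CPM + 1) of 3.27 over members, held Mrpl57 at 7.80, Mrps21 at 7.92, Mrpl36 at 8.54 and Mrpl30 at 8.60, and had Mrpl48, Mrpl49, Mrpl55, Mrps16, Mrps25, Mrps28 and Mrps30 at 0. S+P C4 2 had Mrps6, Mrpl48 and Mrpl50 at 0 and Mrpl52 at 7.87. S+P C4 3 had Mrps16 at 0, Mrpl54 at 0.14 and Mrpl32 at 7.07. These are the 3 samples under 9000 detected genes. S+P C7 3 had the highest B cell and erythroid marker sums of all samples, and S+P C4 3 held 349 CPM of the erythroid and platelet markers. Whether the low detection or those markers account for the values was not tested.

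S+P C5 2 and S+P C5 3, which detected 74 and 72 members and 12416 and 12652 genes, stood apart as well. S+P C5 2 had Mrpl49 and Mrps31 at 0, Mrpl57 at 2.97, Mrpl30 at 7.38 and the ratio of cytosolic to mitochondrial sums at 32.01. S+P C5 3 had Mrpl46 at 0.88, Mrpl54 at 2.20 and Mrpl21 at 6.62. Sensitized 3 had Mrpl48 at 5.49. All gene values here are log2(CPM + 1).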

How the results depend on the processing

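Over 45 settings, 209 of 211 recounts of members called gave 0, and both exceptions were Mrpl23 in S+P C7 against Sensitized (1 member with DESeq2, 1 without the samples under 9000 detected genes). Over these settings its log2 fold change ran from −1.44 to −0.65, and to −1.60 where a further replicate was left out besides the 3 samples. Leaving out each replicate in turn gave 0 members called throughout and moved the members' median log2 fold change between −0.12 and 0.31 for Sensitized against Naive, between −0.28 and 0.049 for N+P C1 against Naive and between −0.42 and −0.052 for N+P C5 against Naive, each upper value being that without Naive 1. Against Sensitized it ran between −0.32 and −0.14 for S+P C4, between −0.33 and −0.17 for S+P C5 and between −0.43 and −0.20 for S+P C7, each upper value being that without Sensitized 2. N+P C5 against N+P C1 changed sign (−0.16 to 0.081, highest without N+P C1 1), as did the test of the difference (−0.15 without Naive 1 to 0.12), and S+P C5 against N+P C5 ran from 0.041 to 0.23 and S+P C7 against S+P C5 from −0.21 to −0.035. Of 56 fold changes of single members, 35 moved by over 1.5 times or changed sign on leaving out 1 replicate. Of 191 recomputed medians 188 moved by less than the pooled SD of single samples' mean log2(CPM + 1) over members. That SD ran from 0.22 (N+P C5 against N+P C1) to 0.94 (S+P C4 against Sensitized). A median near 0 can change sign within it, so this count does not show that the medians were stable. Of 1049 recomputed fold changes of single members 10 changed sign. These were Mrps25 in Sensitized against Naive (−1.48 to 0.25 over left-out replicates), Mrps18c in S+P C4 (−0.36 without the 3 samples), and Mrps21, Mrps24, Mrpl36 and Mrpl30 in S+P C7 against Sensitized (−0.050, −0.048, −0.30 and −0.089 without the 3 samples, and over left-out replicates −0.054 to 1.06, −0.055 to 0.90, −0.30 to 0.98 and −0.094 to 0.84, each lowest without S+P C7 3). The summed level moved by over 1 SD in N+P C5 (3574 against 3262 CPM as a share outside the mitochondrial genome) and in S+P C5 (3993 against 3571 CPM by that share, 3828 by library size alone). With the replicate number as a block, fitted on the paired samples of each comparison alone, 0 members were called in every comparison and the median was −1.01 in S+P C4 and −0.89 in S+P C7 against Sensitized and −0.063 in S+P C5 against N+P C5 (groups that do not pair) and −0.37 in S+P C7 against S+P C5 (which pair), and the block changed no member's call. The cause of these shifts was not tested.

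The count of all genes called moved by over 1.5 times without the 3 samples: from 30 to 153 in Sensitized against Naive, 0 to 19 in N+P C1, 8 to 120 in N+P C5 against Naive, 1 to 15 in N+P C5 against N+P C1, 1 to 4 in S+P C4, 14 to 199 in S+P C5, 6 to 69 in S+P C7, 0 to 16 in S+P C5 against N+P C5 and 5 to 27 in the test of the difference. DESeq2 called 625 to 1102 genes per comparison. With the replicate number as a block, fitted on those groups alone, N+P C5 against N+P C1 had 29 of 13219 genes called. The main fit called 1 of 19657 there. Low counts limit Mrpl53, and the cause of the zeros in the 3 samples was not tested. Leaving out these 3 samples, in the tables of levels, in the leave-one-out of Mrpl23 and Myc and with the block, was chosen after seeing the data.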
